A study of Mus musculus with 12 samples.

Results

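Mitochondrial ribosomal proteins are the protein components of the mitochondrial ribosome, which translates the few respiratory chain subunits encoded by mitochondrial DNA. All of them are encoded in the nucleus, made in the cytosol and imported, and many have no counterpart in the bacterial ribosome from which the organelle's ribosome descends. In hepatocytes, cells rich in mitochondria, their output has to match that of the nuclear-encoded respiratory chain subunits, and PGC-1alpha, acting with nuclear respiratory factors and estrogen-related receptors, is known as a coactivator of many nuclear genes for mitochondrial proteins. The genes were taken as those whose symbol begins with Mrpl or Mrps followed by a number, each by its brightest probe. This gave 77 of the 19018 genes tested, measured by 113 of the 41174 probes of the array. Of these, 50 encode proteins of the large subunit (Mrps18a and Mrps30 included, in spite of their symbols), 26 encode proteins of the small subunit, and Mrps36 encodes a protein now known as a subunit of the ketoglutarate dehydrogenase complex.

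Primary hepatocytes of C57BL/6 mice were of 2 genotypes, PGC-1alpha -/- or PGC-1alpha +/+, and received an adenovirus that carried either a short hairpin aimed at TLS (shTLS) or a control hairpin. The 4 groups of 3 arrays each were thus -/- shTLS, -/- control, +/+ shTLS and +/+ control. Every culture was infected, at a multiplicity of 5, kept with 100 nM dexamethasone and 100 nM insulin and harvested at 24 h, so no group was without virus or hormone. Each of 3 mice per genotype gave 1 culture per vector, and mice of the same number in both genotypes are different animals. The labels do not give the age of the mice or the deleted part of the gene. The series asked about TLS activity with and without PGC-1alpha.

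The 1 probe for Ppargc1a, which encodes PGC-1alpha, differed between -/- and +/+ cells by -0.18 (SE 0.52, limma adjusted p = 1.0), and without the position of the deletion it checks nothing. On the 6 shTLS arrays the 75th percentile of the signal was 344 to 635, against 810.4 to 1064 on the 6 control arrays. The number of probes well above background ran from 22706 to 26680 per array, and was fewest on the control array of +/+ mouse 2. Arrays of 1 number shared a slide, and each group kept 1 position on it, so the effects of position and of group cannot be told apart. Hepatocyte markers were high throughout, with a summed linear signal of 9 genes between 160853 and 482279. The summed signal of 7 macrophage and Kupffer cell markers ran from 4679 to 20973 in -/- shTLS cells, from 6280 to 74121 in -/- control cells, from 4197 to 4341 in +/+ shTLS cells and from 3432 to 10647 in +/+ control cells. All 7 had a negative shTLS difference (median -1.71, 0 called), and 8 of 9 hepatocyte markers did (median -0.65, 1 called). Sums of 5 cholangiocyte markers ran from 18538 to 62204 in -/- shTLS cells and from 49214 to 213716 in -/- control cells. They ran from 18954 to 44265 in +/+ shTLS cells and from 40672 to 142204 in +/+ control cells. Over all arrays, 4 stellate markers summed to 8492 to 27806 and 6 endothelial markers to 1323 to 9182. Of these lists, 5 of 6 endothelial markers were positive (median 0.28), and 4 of 4 stellate markers (median -0.46) and 4 of 5 cholangiocyte markers (median -1.26) were negative. The part of these cells in the results below was not tested. In bulk RNA, fewer cells of a type and less RNA per cell cannot be told apart.

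Several of the genes described below differ in what stands before their start sites, and the promoters of 5 of them are shown for that reason. They are the members with the largest negative and positive shTLS differences, and both members of smallest p between the genotypes. Each is 250 bases before to 50 bases after the annotated start of the RefSeq gene in build GRCm38.p6, 5′ to 3′ on the gene's strand. Capitals mark matches, on either strand, to 5 motifs: the half-site TGCGCA of nuclear respiratory factor 1, CCGGAAG of the ETS family (to which the GABP factor belongs), ATGGCGG of YY1, AAGGTCA of estrogen-related receptors and the E-box CACGTG. The windows lie at chr13:73330759-73331058 on the plus strand (Mrpl36), chr2:24975049-24975348 on the minus strand (Mrpl41), chr3:94443086-94443385 on the plus strand (Mrpl9), chr17:47368947-47369246 on the plus strand (Mrps10) and chr7:28741772-28742071 on the minus strand (Mrps12).
Mrpl36: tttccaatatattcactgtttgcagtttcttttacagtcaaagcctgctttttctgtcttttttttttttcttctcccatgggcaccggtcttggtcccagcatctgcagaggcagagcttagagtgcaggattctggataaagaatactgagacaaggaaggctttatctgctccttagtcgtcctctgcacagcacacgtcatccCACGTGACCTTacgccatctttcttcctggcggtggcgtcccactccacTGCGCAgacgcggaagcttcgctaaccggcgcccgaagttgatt
Mrpl41: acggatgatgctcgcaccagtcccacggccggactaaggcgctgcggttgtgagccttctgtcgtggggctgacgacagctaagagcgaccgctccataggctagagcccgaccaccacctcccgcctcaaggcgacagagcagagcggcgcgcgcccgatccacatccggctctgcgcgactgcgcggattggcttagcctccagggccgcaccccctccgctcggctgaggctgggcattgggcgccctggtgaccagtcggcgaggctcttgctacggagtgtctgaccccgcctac
Mrpl9: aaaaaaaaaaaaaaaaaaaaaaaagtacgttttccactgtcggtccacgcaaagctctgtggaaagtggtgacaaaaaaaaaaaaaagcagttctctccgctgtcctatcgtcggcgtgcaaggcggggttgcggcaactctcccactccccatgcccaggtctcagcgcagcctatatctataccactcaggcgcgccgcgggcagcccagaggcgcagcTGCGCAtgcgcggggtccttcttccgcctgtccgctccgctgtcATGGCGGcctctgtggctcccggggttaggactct
Mrps10: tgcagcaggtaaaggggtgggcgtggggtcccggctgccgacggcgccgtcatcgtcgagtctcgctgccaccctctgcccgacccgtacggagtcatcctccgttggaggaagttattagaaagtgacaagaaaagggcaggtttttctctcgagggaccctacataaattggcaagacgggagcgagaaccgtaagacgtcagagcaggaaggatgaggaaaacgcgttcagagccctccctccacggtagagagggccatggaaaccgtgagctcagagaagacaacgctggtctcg
Mrps12: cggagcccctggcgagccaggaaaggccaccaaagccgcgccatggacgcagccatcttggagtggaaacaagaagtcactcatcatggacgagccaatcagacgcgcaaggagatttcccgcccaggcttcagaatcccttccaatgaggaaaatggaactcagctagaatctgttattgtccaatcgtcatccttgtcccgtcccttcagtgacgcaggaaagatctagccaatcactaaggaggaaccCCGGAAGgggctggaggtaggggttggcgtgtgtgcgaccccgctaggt
Mrpl36 held an E-box and an estrogen-related receptor half-site that overlap, and a half-site of nuclear respiratory factor 1. Mrpl9 held a half-site of nuclear respiratory factor 1 and a YY1 match. Mrps12 held an ETS match at its start site. The windows of Mrpl41 and Mrps10 held 0 matches, which says only that these letters are not in these windows.

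Across the 68 genes of the family with a window in the table, the ETS motif stood in 25 (36.8%), against 9.93% of the 27025 genes in the table and 18.4% of those tested. The half-site of nuclear respiratory factor 1 stood in 21 (30.9%, against 8.79% of the table and 15.1% of genes tested). The YY1 motif stood in 13 (19.1%, against 4.69% and 8.53%). The estrogen-related receptor half-site stood in 4 (5.88%, against 5.38% and 4.27%) and the E-box in 5 (7.35%, against 8.09% and 11.3%). In all, 45 of the 68 windows held at least 1 of the first 3 motifs. The median shTLS difference, averaged over genotypes, was 0.05 for genes with the half-site of nuclear respiratory factor 1 and -0.10 for those without it, -0.09 and -0.10 for the ETS motif, and -0.04 and -0.13 for the YY1 motif. It was -0.21 with and -0.08 without the estrogen-related receptor half-site, and -0.02 with and -0.10 without the E-box. The median difference of -/- minus +/+ cells was 0.16 with and 0.03 without the estrogen-related receptor half-site, which rests on 4 genes, and -0.01 with and 0.07 without the half-site of nuclear respiratory factor 1. It was 0.12 with and 0.03 without the E-box, which rests on 5 genes. For the ETS motif it was -0.01 with and 0.06 without, and for the YY1 motif 0.01 and 0.05. These are descriptions with no test.

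The family was bright and even. The chosen probes of all 77 genes were well above background on all 12 arrays, as were 81.1% of those of all genes tested. Their mean log2 signal had a median of 12.35, against 8.73 over all genes. The lowest was that of Mrps27 (8.53), a small-subunit protein with pentatricopeptide repeats, followed by Mrpl4 (9.13), a protein at the polypeptide exit tunnel, and Mrps18b (9.52), 1 of the S18 family. The highest belonged to Mrpl33 (15.14), Mrpl28 (15.13) and Mrpl52 (14.72), all of the large subunit. Probes differ in how strongly they bind, so this order is not an order of transcript levels. Replicates of a group lay closer together for the family than for all genes. The genes compared were not matched to the family in signal, here or for the sizes of differences and the intervals below. The part of brightness in this was not tested. The median SD within a group was 0.28 in -/- shTLS cells, against 0.44 over all genes, and 0.19 against 0.40 in -/- control cells. It was 0.37 against 0.44 in +/+ shTLS cells and 0.40 against 0.52 in +/+ control cells. The genes lie on 17 chromosomes, with 11 on chromosome 11 and 8 on chromosome 17.

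On some arrays most of the family lay to one side at once. On both arrays of +/+ mouse 2 the median deviation of the 77 genes from their own mean over the 12 arrays was -0.36, and on the shTLS array of -/- mouse 2 it was -0.19. On the other 9 arrays it was 0.01 to 0.23. Of the 77 genes, 64 (83.1%) lay below their own mean on the shTLS array of -/- mouse 2, 62 (80.5%) on the shTLS array of +/+ mouse 2 and 63 (81.8%) on its control array, against 49.5%, 51.4% and 56.0% of all genes. These 3 arrays shared a slide with the control array of -/- mouse 2. On that array 31 of the 77 (40.3%) were below, against 51.6% of all genes. Other arrays went the other way. On the control arrays of -/- mouse 3 and +/+ mouse 3, 8 (10.4%) and 12 (15.6%) were below, against 44.3% and 44.6% of all genes. On the shTLS array of +/+ mouse 1 it was 19 (24.7%), against 47.7%. The cause of these shifts was not tested. Ppargc1a was highest on both arrays of +/+ mouse 2, at 10.99 with shTLS and 10.39 with the control hairpin, and that control array also had the most spots flagged (206). Counts of members called with shTLS and between genotypes, and the family's medians, are given below with and without this mouse. Most other results are given only with it.

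**Figure D1:**
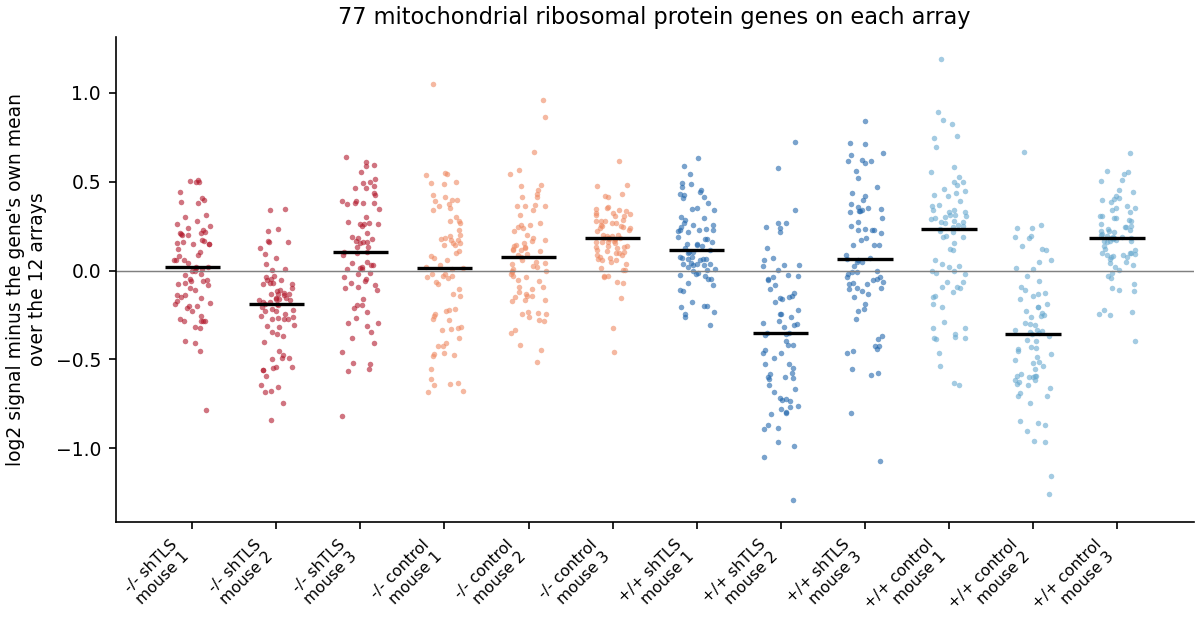
Each point is 1 of the 77 genes on 1 array, as its log2 signal minus its own mean over the 12 arrays (vertical axis, log2), with the arrays ordered by group and mouse number along the horizontal axis and a black bar at the median. The medians of both arrays of +/+ mouse 2 lie at -0.36, and the next lowest, -0.19, is the shTLS array of -/- mouse 2.

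With shTLS, averaged over both genotypes, the family as a whole stayed near its control level under quantile normalization, and the members with the largest differences were of the large subunit. By the limma fit to all 12 arrays, with p-values adjusted over all genes by the Benjamini-Hochberg method and calls at an adjusted p under 0.05, 0 of the 77 members were called, against 8.31% of all genes. At an unadjusted p under 0.05 there were 7 members (9.09%), against 28.2% of all genes. The median difference was -0.08 (28 genes positive and 49 negative), against -0.02 over all genes. The median size of a difference, whatever its sign, was 0.23 in the family and 0.41 over all genes. The 95% interval lay within a 2-fold change either way for 70 of the 77 (90.9%), against 43.6% of all genes. With the replicate number as a block (the slide, which held both cultures of 1 mouse of each genotype), 7 members were called (9.09%), against 29.1% of all genes. Of these, 6 were lower and 1 was higher with shTLS. The share called was below that of all genes in both fits. The fit without a block takes no account of the pairing of both cultures of a mouse. Its p-values for shTLS, here and in each genotype, can therefore be too large and its intervals too wide. For Mrpl41 the SE was 0.36 without the block and 0.21 with it.

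Mrpl41 encodes a large-subunit protein with no bacterial counterpart. Its log2 signal was 12.03, 11.02 and 10.70 in -/- shTLS cells, against 12.57, 12.48 and 11.58 in -/- control cells. It was 11.49, 10.23 and 10.72 in +/+ shTLS cells, against 12.71, 11.17 and 11.54 in +/+ control cells. The groups overlapped. In each group the array of number 1 was the highest, and mouse and slide cannot be told apart in this. The shTLS culture was the lower in all 6 mice, by 0.55 to 1.46. The averaged difference was -0.98 (SE 0.36, limma adjusted p = 0.112, and 0.0105 with the replicate block). Its other probe was above background on 0 arrays and gives no second reading.

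Mrpl36 encodes the counterpart of the small zinc-binding bacterial protein L36. It read 11.94, 11.77 and 11.37 in -/- shTLS cells, against 12.47, 12.50 and 11.99 in -/- control cells. It read 11.70, 11.44 and 11.47 in +/+ shTLS cells, against 12.69, 11.84 and 12.02 in +/+ control cells. In neither genotype did the shTLS and control arrays overlap. The averaged difference was -0.64 (SE 0.20, limma adjusted p = 0.0764, and 0.0155 with the replicate block), the smallest unadjusted p of the family in this comparison.

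Mrpl22, whose bacterial counterpart lines the exit tunnel, averaged 10.67 ± 0.42 in -/- shTLS cells and 11.25 ± 0.13 in -/- control cells, and 10.69 ± 0.41 in +/+ shTLS cells and 11.25 ± 0.63 in +/+ control cells (SD, n = 3 each). Its shTLS difference was -0.57 (SE 0.25, limma adjusted p = 0.168, and 0.0219 with the block). Mrpl14, at the face that meets the small subunit, averaged 14.34 ± 0.27 in -/- shTLS cells and 14.78 ± 0.14 in -/- control cells, and 14.29 ± 0.30 in +/+ shTLS cells and 14.81 ± 0.39 in +/+ control cells (SD, n = 3 each). Its difference was -0.48 (SE 0.20, limma adjusted p = 0.141, and 0.0215 with the block). In the small subunit, Mrps10, of the head, differed by -0.48 (SE 0.22, limma adjusted p = 0.187, and 0.0255 with the block). Mrps35, also of the head and without a bacterial counterpart, differed by -0.41 (SE 0.16, limma adjusted p = 0.123, and 0.0436 with the block). Each of these 4 was lower with shTLS in 6 of 6 mice. Mrpl34 (-0.58, SE 0.25) and Mrpl28 (-0.50, SE 0.24), both with bacterial counterparts, were lower in 6 of 6 mice as well and were called in neither fit. In the family 16 of the 77 were lower with shTLS in all 6 mice, against 18.8% of all genes. Higher in all 6 were 8 of the 77, against 19.4% of all genes. Such agreement was thus common among all genes.

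Mrpl9, of the large subunit near the L1 stalk, was the 1 member called higher with the block. It read 10.32, 10.62 and 10.71 in -/- shTLS cells, against 10.18, 10.33 and 10.00 in -/- control cells. It read 10.52, 11.18 and 10.71 in +/+ shTLS cells, against 10.08, 10.65 and 10.21 in +/+ control cells. The groups overlapped in both genotypes, and the shTLS culture was the higher in all 6 mice. The difference was 0.43 (SE 0.19, limma adjusted p = 0.158, and 0.0434 with the block), and it turned to -0.41 under scaling to spike-in controls. The next largest positive differences were those of Mrps9 (0.41), whose bacterial counterpart reaches the P site, Mrpl45 (0.37), which anchors the ribosome to the inner membrane, Mrpl38 (0.36) of the central protuberance and Mrps23 (0.33), and none of these was called in either fit. The other tested probe of Mrpl38 gave -0.06, so its direction depends on the probe.

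**Figure D2:**
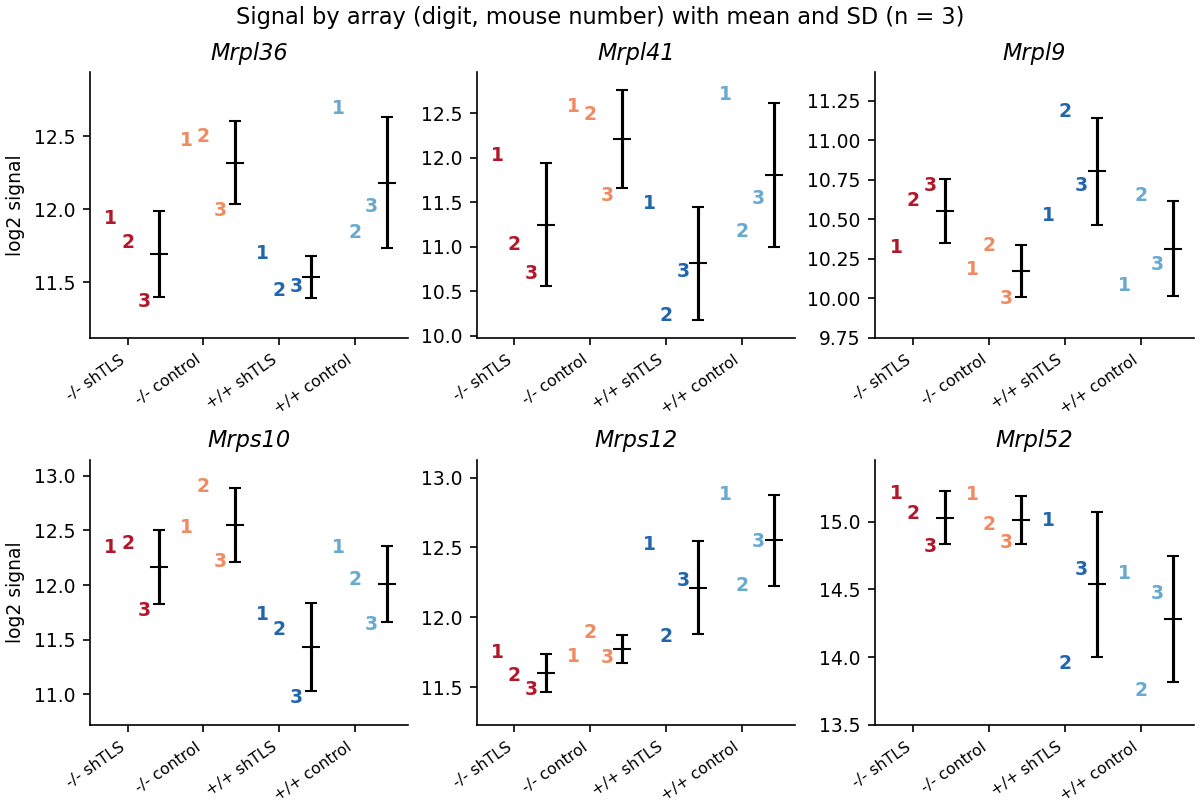
Log2 signal (vertical axis) of 6 genes in the 4 groups (horizontal axis), with each array drawn as the number of its mouse and the mean with its SD (n = 3) beside it. For Mrpl41 the shTLS value of each mouse lies below its control value by 0.55 to 1.46. For Mrps12 each -/- array lies below the +/+ array of the same number and vector.

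Without both arrays of +/+ mouse 2, 0 members were called without the block and 10 with it (2 higher and 8 lower), against 5.21% and 32.2% of all genes. Of those 10, 5 were among the 7 called on all arrays: Mrpl14, Mrpl22, Mrpl36, Mrpl41 and Mrps10. The other 5 were Mrpl28, Mrpl34, Mrpl38, Mrpl45 and Mrpl50. The family's median shTLS difference without that mouse was -0.10 (24 positive, 53 negative), against -0.02 over all genes. In +/+ cells alone it was -0.07 (31 positive, 46 negative). For the difference between both shTLS effects the median was -0.04 (31 positive, 46 negative). With the mouse as a random block 10 were called, against 37.6% of all genes, and all 7 were among them, with Mrpl28, Mrpl34 and Mrps9 in addition. In +/+ cells alone the random block called 2, against 19.6% of all genes, and in -/- cells 0, against 11.7%.

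In -/- cells alone 0 of 77 were called with shTLS, against 0.994% of all genes, and 0 with the block, against 6.39%. At an unadjusted p under 0.05 there were 0, against 12.2% of all genes. Without both arrays of +/+ mouse 2, which leaves these samples but changes the shared spread, 0 were called, against 0.931%, and 1 with the block, against 11.2%. The median difference was -0.14 (25 positive, 52 negative), against -0.02 over all genes. All 3 shTLS arrays lay below all 3 control arrays for 11 members (14.3%), against 8.83% of all genes: Mrpl11, Mrpl14, Mrpl16, Mrpl18, Mrpl20, Mrpl22, Mrpl34, Mrpl36, Mrps14, Mrps24 and Mrps35. They lay above for 0 members, against 10.5% of all genes. The median over the family of the difference within a mouse was 0.06, -0.32 and -0.09 in mice 1, 2 and 3, so mouse 2 held most of the shift. In +/+ cells alone 0 were called, against 1.24% of all genes, and 0 with the block, against 12.7%. At an unadjusted p under 0.05 there was 1, Mrpl36, against 16.5% of all genes. Without both arrays of +/+ mouse 2, 0 were called, against 0.189%, and 0 with the block, against 11.2%. The median was -0.05 (34 positive, 43 negative), against -0.01, and the medians within mice were -0.03, 0.01 and -0.12. The arrays of both vectors did not overlap for 3 members that were lower with shTLS (Mrpl1, Mrpl36 and Mrps35, 3.9%, against 9.33% of all genes) and for 0 that were higher, against 10.9%. The difference between both shTLS effects was called for 0 members and for 0.0% of all genes, of which 47 (0.247%) were at an unadjusted p under 0.05, with 0 members among them. Its median in the family was -0.07 (23 positive, 54 negative), and 29 of the 77 intervals (37.7%) lay within a 2-fold difference, against 15.5% of all genes. For the other members the interval reached beyond 2-fold. Under spike-in scaling the median turned to 0.03 (43 positive, 34 negative). The members of smallest p were Mrps11 (-0.47, SE 0.54), Mrpl19 (-0.29, SE 0.37), Mrps6 (-0.32, SE 0.45) and Mrps9 (-0.34, SE 0.49), each with a limma adjusted p of 1.0.

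These values rest on quantile normalization, which gives every array the same distribution. Scaled to 10 spike-in control probes in its place, the median of all genes with shTLS shifted to -0.72 in -/- cells, -0.81 in +/+ cells and -0.77 averaged over genotypes, and the family's medians to -0.88, -0.85 and -0.86. All 77 members were then negative, and 61 were called lower in the averaged comparison (79.2%), against 53.0% of all genes called in either direction. In +/+ cells 29 were called, against 22.8% of all genes, and in -/- cells 1, against 1.21%. With the block added, 72 were called in the averaged comparison, against 67.3%, and 51 in each genotype, against 43.4% in -/- cells and 50.7% in +/+ cells. Scaled to the 75th percentile, 0 were called in -/- cells, in +/+ cells and averaged, against 1.46%, 1.86% and 10.6%. Relative to the median of all genes, the family differed by -0.07 under quantile normalization, -0.09 under scaling to the 75th percentile and -0.09 under spike-in scaling in the averaged comparison. In -/- cells these were -0.12, -0.15 and -0.15, and in +/+ cells -0.04, -0.03 and -0.03. The family's position among all genes thus moved by at most 0.03 between scalings, while its level against the controls moved by more than 0.7.

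**Figure D3:**
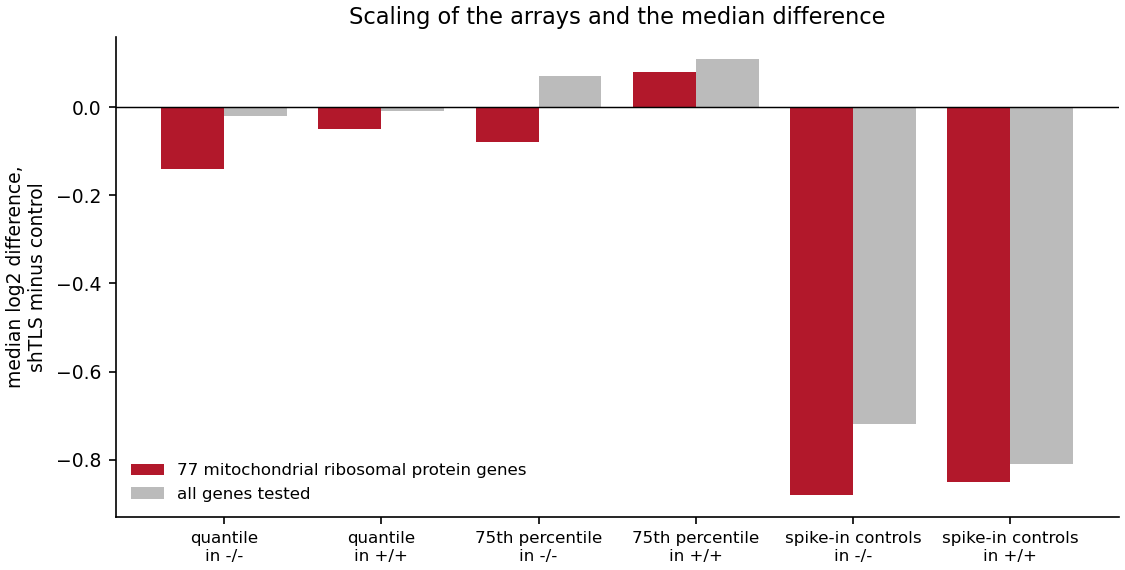
Bars give the median log2 difference, shTLS minus control (vertical axis), of the 77 genes (red) and of all genes tested (grey), for each genotype under 3 ways of scaling the arrays (horizontal axis). Under spike-in scaling both medians lie between -0.72 and -0.88.

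By role and under quantile normalization, the 29 large-subunit proteins with a bacterial counterpart had a median shTLS difference, averaged over genotypes, of -0.21 (8 positive, 21 negative). The 21 without one had 0.05 (11 positive, 10 negative). The small subunit gave -0.10 for 16 proteins with a counterpart and -0.06 for 10 without. Scaled to the 75th percentile these 4 medians were -0.07, 0.12, -0.09 and 0.04, and scaled to the spike-in controls -0.93, -0.74, -0.95 and -0.82. Single members ran from -0.98 to 0.43, and these medians were not tested against each other. Mrps36 differed by -0.29 (SE 0.26). Of members chosen for their roles, Mrpl12, of the stalk that recruits translation factors, differed by -0.10, Mrpl11, at the base of that stalk, by -0.24, and Mrpl3, near the peptidyl transferase centre, by 0.28. Mrpl44, with a ribonuclease III fold, differed by -0.15 and Mrpl58, which releases peptides from stalled ribosomes, by 0.05. In the small subunit Mrps12 differed by -0.25, Mrps16 by -0.34, Mrps34 by -0.25, Mrps22 by 0.05 and Mrps7 by 0.32, whose other tested probe gave -0.12. The S18 relatives Mrps18a (0.22), Mrps18b (0.27) and Mrps18c (0.33) and Mrps30 (0.22) were positive under quantile normalization and negative under spike-in scaling. None of these was called with or without the block.

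**Figure D4:**
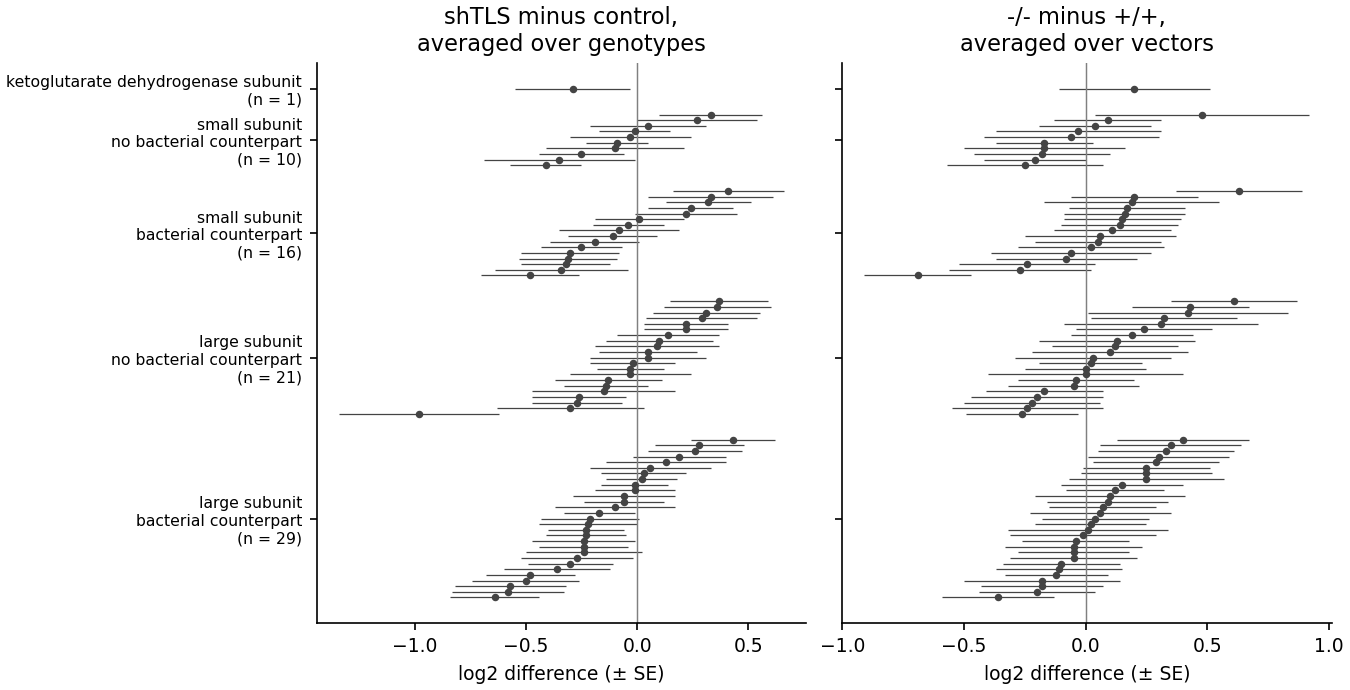
Each point is 1 gene, with its SE as a line, placed by its log2 difference (horizontal axis) within its role (vertical axis), for shTLS minus control on the left and -/- minus +/+ on the right. Mrpl41, at -0.98, is the leftmost point of the left panel, and Mrps12, at -0.69, that of the right panel.

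Between genotypes the family did not separate, and the members of smallest p lay in opposite directions. Averaged over vectors, with the mouse as a random block, 0 of 77 were called in -/- against +/+ cells, against 0.116% of all genes, and 0 with the replicate block, against 0.731%. In this averaged comparison the replicate block has no term for the mouse. It treats both arrays of a mouse as independent, so its p-values can be too small. At an unadjusted p under 0.05 there were 3 (Mrps12, Mrps10 and Mrpl52), against 2.76% of all genes. The median difference was 0.04 (46 positive, 31 negative), against 0.02 over all genes, and 71 of the 77 intervals (92.2%) lay within a 2-fold change, against 43.1% of all genes. With the control hairpin 0 were called, against 0.0894% of all genes, with a median of 0.05 and 2 members at an unadjusted p under 0.05, against 3.25%. With the replicate block 0 were called, against 0.158%. With shTLS 0 were called, against 0.0841%, with a median of -0.02 and 2 members at an unadjusted p under 0.05, against 2.13%. With the block 0 were called, against 0.168%. Without both arrays of +/+ mouse 2 the averaged median turned to -0.12 (18 positive, 59 negative), against -0.01 over all genes, and 0 were called, against 0.0841%. With the control hairpin it turned to -0.11, with 0 called, against 0.0526%, and with shTLS, where it was already negative, it was -0.13, with 0 called, against 0.0789%. With all mice kept, the averaged median was -0.02 (37 positive, 40 negative) under scaling to the 75th percentile and 0.10 (56 positive, 21 negative) under spike-in scaling. With shTLS it was -0.07 and 0.12. The direction of the family's genotype median thus depended on that mouse and on the scaling.

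Mrps12 encodes a protein of the decoding centre whose bacterial counterpart is known for streptomycin resistance mutations. Its log2 signal was 11.75, 11.58 and 11.48 in -/- shTLS cells, against 12.52, 11.86 and 12.26 in +/+ shTLS cells. It was 11.72, 11.89 and 11.71 in -/- control cells, against 12.88, 12.23 and 12.54 in +/+ control cells. Within each vector all -/- arrays lay below all +/+ arrays. Over both vectors the genotypes overlapped, since 1 -/- control array (11.89) lay above 1 +/+ shTLS array (11.86). The difference averaged over vectors was -0.69 (SE 0.22, limma adjusted p = 1.0, and 0.0885 with the replicate block), and -0.86 without +/+ mouse 2. The block value can be too small, since it treats both arrays of a mouse as independent. Sars2, the mitochondrial seryl-tRNA synthetase gene that lies head to head with Mrps12 and was looked up after these values were seen, differed by -0.15 (SE 0.23, limma adjusted p = 1.0).

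Mrps10 lay the other way, with higher values in -/- cells. It read 12.34, 12.38 and 11.77 in -/- shTLS cells, against 11.73, 11.59 and 10.97 in +/+ shTLS cells. It read 12.53, 12.90 and 12.22 in -/- control cells, against 12.34, 12.05 and 11.64 in +/+ control cells. The groups did not overlap with shTLS and overlapped with the control hairpin. The averaged difference was 0.63 (SE 0.26, limma adjusted p = 1.0, and 0.0822 with the replicate block), and 0.68 without +/+ mouse 2. The same limit of the block holds here. Mrpl52 read 15.21, 15.06 and 14.82 in -/- shTLS cells, against 15.01, 13.95 and 14.65 in +/+ shTLS cells. It read 15.20, 14.98 and 14.85 in -/- control cells, against 14.62, 13.75 and 14.47 in +/+ control cells. The arrays of +/+ mouse 2 were the lowest of their groups, and without them the averaged difference of 0.61 (SE 0.26, limma adjusted p = 1.0) became 0.33. Mrpl57, another large-subunit protein without a bacterial counterpart, gave 0.43 (SE 0.24, limma adjusted p = 1.0), and 0.22 without that mouse.

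With the control hairpin the genotypes did not overlap for 2 members that were higher in -/- cells (Mrpl52 and Mrpl57, 2.6%, against 3.32% of all genes) and for 3 that were lower (Mrpl1, Mrps12 and Mrps33, 3.9%, against 3.82%). With shTLS this held for 2 that were higher (Mrpl57 and Mrps10, 2.6%, against 2.73%) and for 1 that was lower (Mrps12, 1.3%, against 2.54%). These shares are near those of all genes. Over all 6 shTLS and 6 control arrays, 0 members were free of overlap, against 4.03% of all genes higher and 2.12% lower with shTLS. Over all 6 arrays of each genotype there were also 0, against 0.337% of all genes higher and 0.347% lower in -/- cells.

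The members can be set beside the other genes on which the same translation system depends. None of the following lists held a gene called between genotypes in the comparison averaged over vectors. With shTLS, averaged over genotypes, the share of all genes called was 8.31%, and 29.1% with the replicate block. The share called lay below 8.31% in all of these lists but 2, those of mitochondrial DNA (16.7%) and of regulators (12.5%), and below 29.1% with the block in all of them. In that comparison 5 mitochondrial ribosomal proteins with other symbols had a median difference of 0.08 and 0 calls. Of 19 mitochondrial translation factors (median -0.12), 1 fell: Oxa1l, the insertase that takes up proteins from the ribosome (-0.83, SE 0.19, limma adjusted p = 0.0271). Of 18 mitochondrial aminoacyl-tRNA synthetases (median -0.15, 4 positive and 14 negative), 1 fell: Mars2, for methionine (-1.39, SE 0.29, limma adjusted p = 0.0196), and 4 were called lower with the block. Of 26 ribosome assembly factors (median 0.02), 1 rose: Mrm1, a methyltransferase of the large ribosomal RNA (0.76, SE 0.20, limma adjusted p = 0.0427). With the block 2 assembly factors were called higher and 3 lower. The lower ones were Mtg1 (-0.58), a GTPase, Ddx28 (-0.81), an RNA helicase, and Mettl17 (-0.65).

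Of 12 genes for mitochondrial DNA and its transcription (median 0.12), 2 rose: Tfb2m, a mitochondrial transcription factor (1.18, SE 0.32, limma adjusted p = 0.0481), and Mgme1, a mitochondrial exonuclease (0.86, SE 0.23, limma adjusted p = 0.0463). With the block these 2 were called higher and 1 gene lower, Ssbp1, a single-stranded DNA-binding protein (-0.54, limma adjusted p = 0.0152 with the block). Of 16 regulators of mitochondrial genes (median 0.08), 2 rose: Gabpb1, the beta subunit of GABP (0.97, SE 0.24, limma adjusted p = 0.0366), and Esrrg, an estrogen-related receptor (0.94, SE 0.20, limma adjusted p = 0.0207). With the block 3 were called higher, Gabpa (0.65) in addition, and 1 lower, Nrf1, nuclear respiratory factor 1 (-0.50, limma adjusted p = 0.05 with the block, just under the threshold before rounding). Of 73 nuclear-encoded respiratory chain subunits (median -0.16, 17 positive and 56 negative), 1 fell: Atp5k, of the ATP synthase (-0.95, SE 0.23, limma adjusted p = 0.0328), and 8 were called lower with the block. In the cytosolic ribosome most genes were positive under quantile normalization. Of its 47 large-subunit proteins (median 0.12, 34 positive and 13 negative) 0 were called and 2 were called higher with the block. Of its 32 small-subunit proteins (median 0.08, 26 positive and 6 negative) 1 rose, Rps27a (0.62, SE 0.16, limma adjusted p = 0.0412), and 3 were called higher with the block. These lists were not tested against each other or against the family.

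The directions of most of these lists depended on the scaling. The medians of the translation factors (-0.11 with the 75th percentile, -0.97 with the spike-in controls) and of the aminoacyl-tRNA synthetases (-0.13 and -0.99) were negative under all 3 scalings. Scaled to the 75th percentile, the medians of the cytosolic large and small subunits were 0.57 and 0.62, that of the respiratory chain subunits was 0.01, and the family's was 0.00. Scaled to the spike-in controls they were -0.28, -0.24, -0.85 and -0.86. The falls of Oxa1l, Mars2 and Atp5k were called under all 3 scalings, at -1.68, -2.11 and -1.78 with the spike-in controls. The rises were not called with the spike-in controls, where Mrm1 differed by -0.06, Mgme1 by 0.00, Tfb2m by 0.36, Gabpb1 by 0.12, Esrrg by 0.30 and Rps27a by 0.07. Under scaling to the 75th percentile all 6 stayed positive, and Tfb2m just missed the threshold (1.22, limma adjusted p = 0.0523).

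**Figure D5:**
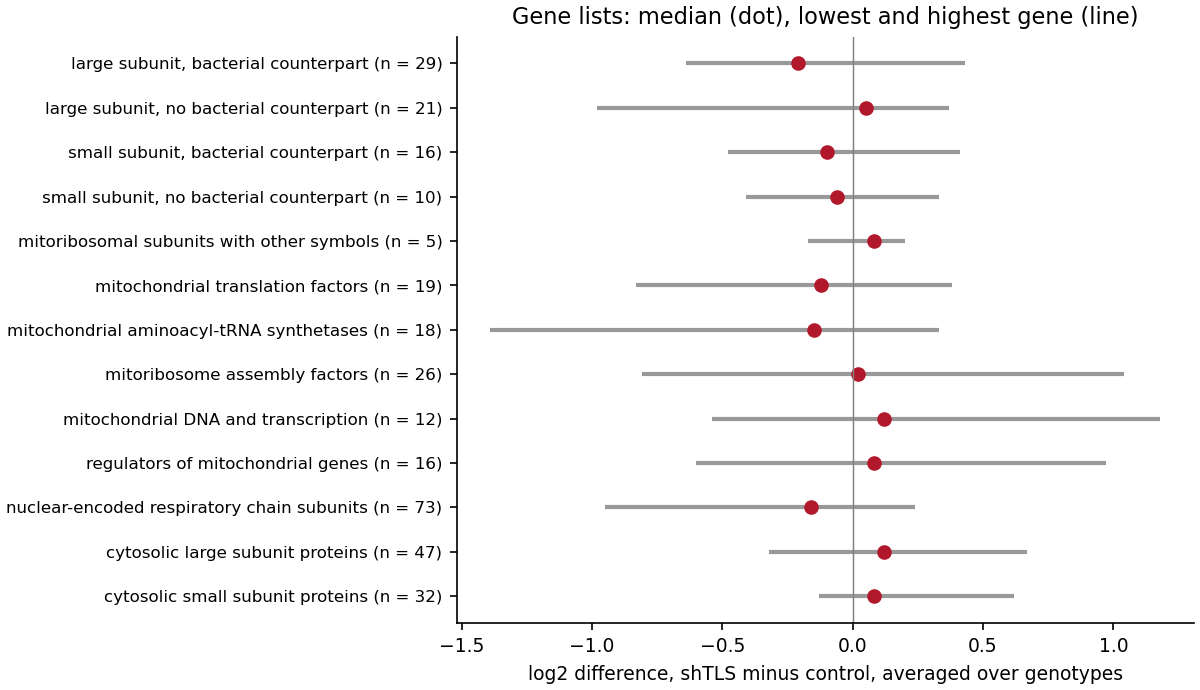
Dots give the median log2 difference, shTLS minus control averaged over genotypes (horizontal axis), of each gene list, and grey lines run from its lowest to its highest gene. The medians run from -0.21 for large-subunit proteins with a bacterial counterpart to 0.12 for cytosolic large-subunit proteins and for genes of mitochondrial DNA and its transcription.

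Where a gene had several probes they gave the same sign more often than not. Of the 77 genes, 49 had 1 probe, 20 had 2 and 8 had 3, and 25 had at least 2 probes that were tested. In 17 of these 25 all tested probes gave the averaged shTLS difference the same sign. The median spread between probes, over all 25, was 0.10. The widest spread was that of Mrps2, whose probes gave -0.11 and 0.91. Probes differed in sign in 8 genes: Mrpl17, Mrpl35, Mrpl38, Mrpl40, Mrpl49, Mrps2, Mrps7 and Mrps33. The 7 members called with the replicate block for shTLS averaged over genotypes are not among the 25. Mrpl9, Mrpl14, Mrpl22, Mrpl36, Mrps10 and Mrps35 had 1 probe each, and the other probe of Mrpl41 was above background on 0 arrays. The agreement between probes therefore says nothing about those 7.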

How the data were processed

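Total RNA of 12 cultures was measured by the authors on 1-colour Agilent arrays. Per the file headers, Feature Extraction 10.1.1.1 gave each spot's processed signal, an intensity on a linear scale corrected for background, median intensities of spot and background, and other columns of flags (well above background, non-uniform, outlier, saturated). The deposited table holds log2 values, and the submitters' processing notes name limma. Values were recomputed from the array files (flagged spots left out, floor of 1, log2, quantile normalization) and correlated with the deposited log2 table by at least 0.99997 per array. They differed from it by at most 0.0085 for the members' probes. A probe was tested if well above background on all 3 arrays of a group, which left 24963. The files pair no probe with a symbol, so symbols came through RefSeq accessions (24375 probes matched, assembly GRCm38.p6, while the array files name another build). Promoter coordinates are those of the RefSeq table. Mrpl48 had no matched probe, and 9 members have no promoter window here.

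Tests used limma 3.58.1 in R 4.3.3 (statmod 1.5.0), 1 fit of 4 group means to 12 arrays, with Benjamini-Hochberg adjustment over all 19018 genes. The fit was checked on simulated data with independent arrays. That check leaves out the correlation by mouse or slide, so it does not test error rates under it. For genotypes averaged over vectors, the mouse was a random block (correlation 0.583). Source names give the mouse. Deviations from group means of both arrays of a mouse correlated by 0.464 to 0.674. Same-numbered arrays of different mice, which share a slide, correlated by 0.234 to 0.648. The correlation is therefore not particular to the mouse. The replicate number, which is also the slide, was an alternative block. An exact two-sided test of 3 against 3 arrays has a smallest p of 0.1, and the number of arrays limits the precision. Named are members called, otherwise those of smallest p, the 5 largest differences either way with shTLS, a set chosen for roles, the brightest and dimmest, and genes called in other lists. The motifs and printed promoters were chosen after the values were seen, and a 10-base form of the motif of nuclear respiratory factor 1 was searched first and is not reported. The members, lists and rules were chosen with earlier results of these data known. Alternatives were other scalings, background correction (normexp on median signals, since the files hold no mean signals), filters, probe rules, blocks and samples left out. In alternatives the correlation within mice was estimated from every 10th gene. All columns of per-sample values were mapped, and 0 were left unused. The level of the gene targeted by the hairpin is not reported here.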

Additional observations from a re-analysis of the deposited data

How the results depend on the processing

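The count of members called was 0 in all 113 alternatives that used neither a block nor spike-in scaling, the deposited log2 table, other background correction, filters and probe rules included. Leaving out 1 array at a time kept it at 0 in all 7 comparisons, while the family's median ran from -0.24 to 0.12 for shTLS in +/+ cells, from -0.18 to 0.00 in -/- cells, from -0.22 to 0.01 averaged over genotypes and from -0.24 to 0.11 for the difference between both effects. Between genotypes it ran from -0.11 to 0.19 with the control hairpin, from -0.13 to 0.12 with shTLS and from 0.00 to 0.08 averaged over vectors. The cause was not tested. The replicate block called 7 members for shTLS averaged over genotypes (9 with 75th percentile scaling, 72 with spike-in scaling, 10 without both arrays of +/+ mouse 2). It called 51 in each genotype with spike-in scaling, 1 in -/- cells without that mouse, and changed no other count. The mouse as a random block called 2 in +/+ cells and 10 averaged over genotypes. Spike-in scaling without a block called 29 in +/+ cells, 1 in -/- cells and 61 averaged over genotypes, with family medians of -0.85, -0.88 and -0.86. It gave a median of 0.12 between genotypes with shTLS. Scaling to the 75th percentile gave 0.08 for shTLS in +/+ cells, with or without the block. Of 3080 values of named members under alternatives, 2705 kept their direction and side of the threshold and 87 passed it in addition. Another 270 changed sign and were called in neither fit, 54 of them under spike-in scaling, which moved the median of all genes. The other 18 changed sign and were then called, all under spike-in scaling. Averaged over genotypes these values were -0.45 (Mrpl38), -0.74 (Mrpl58), -0.41 (Mrpl9), -0.54 (Mrps18a), -0.59 (Mrps18b), -0.76 (Mrps22), -0.50 (Mrps23), -0.55 (Mrps30) and -0.42 (Mrps9), while Mrpl3 (-0.44), Mrpl45 (-0.31), Mrps7 (-0.47) and Mrps18c (-0.43) changed sign without a call. In +/+ cells they were -0.81 (Mrpl58), -0.61 (Mrps18b) and -0.63 (Mrps30), and in -/- cells -0.67 (Mrpl58). Normexp was run on median signals, since no mean signals were in the files, a choice made after seeing the data, as were the block under other scalings and the samples without +/+ mouse 2.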
